A study of Homo sapiens with 6 samples.

Results

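Of the 3838 regions in a table of chromatin accessibility changes in multiple myeloma cells, 437 lay inside genes for long noncoding RNAs and outside every protein-coding gene. They were chosen by position alone: a region had to overlap at least 1 lncRNA gene and no protein-coding gene, and to lie more than 1000 bp from the start and the end of every gene of either kind in the RefSeq table. The regions come from ATAC-seq, an assay in which a transposase cuts accessible DNA and leaves sequencing adapters there. It was run on the human myeloma lines KMS-11, KMS-12 and RPMI8226, labelled wild type, after 1 µM JQ1 for 72 h or after DMSO, the solvent of JQ1, with 1 library per line and treatment in the labels (3 JQ1 and 3 DMSO libraries). The design text of the series instead mentions duplicates and RNA-seq, so whether a fold rests on 1 or 2 cultures is not known. All 6 libraries are from established lines and no other agent is named. The deposited table carries 1 log fold change per region and line, taken here as log2 with JQ1 on top and DMSO below, although its header states neither base nor direction. It holds no counts, so read depth, the level of any region and the identity of the cells by marker genes could not be checked.

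Long noncoding RNAs are transcripts that are not translated into protein. Some act on chromatin or on neighbouring genes, and for many others no role is known, so an accessible site within such a gene may be a start site, an enhancer that happens to lie there, or a site of another kind. JQ1 blocks the acetyl-lysine pockets of the BET proteins, which gather at active enhancers and promoters. Myeloma cells depend on several enhancer-driven genes and are known for their sensitivity to BET inhibition. The series title concerns one lncRNA, SMILO (LINC00582 in the gene table), and the transcription factor FLI1. None of the 437 regions lay in LINC00582 or had FLI1 as its nearest protein-coding gene.

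The 437 regions touched 392 lncRNA genes: 421 regions lay in 1 such gene and 16 in 2 overlapping ones. A different type of gene was overlapped by 13 of them, with a pseudogene in 8 and a tRNA gene in 2. Although the rule keeps regions away from gene ends, 2 regions covered a start that the RefSeq promoter table lists for their own gene. The promoter windows at these starts, 250 bases before to 50 after the start, are printed because they are the places where an accessible region meets a known lncRNA start. Both are from RefSeq, GRCh38.p14, minus strand, with the bases that lie in the accessible region in capitals. They are chr14:22432704-22433003 (TRD-AS1) and chr4:63492608-63492907 (LOC105377253).
TRD-AS1: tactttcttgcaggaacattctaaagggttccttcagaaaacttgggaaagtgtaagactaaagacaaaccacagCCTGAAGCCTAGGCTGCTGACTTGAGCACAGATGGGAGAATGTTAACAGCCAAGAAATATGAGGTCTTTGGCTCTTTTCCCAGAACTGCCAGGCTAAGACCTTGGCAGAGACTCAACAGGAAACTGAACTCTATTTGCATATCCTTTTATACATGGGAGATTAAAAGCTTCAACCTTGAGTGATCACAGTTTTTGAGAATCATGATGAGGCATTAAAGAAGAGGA
LOC105377253: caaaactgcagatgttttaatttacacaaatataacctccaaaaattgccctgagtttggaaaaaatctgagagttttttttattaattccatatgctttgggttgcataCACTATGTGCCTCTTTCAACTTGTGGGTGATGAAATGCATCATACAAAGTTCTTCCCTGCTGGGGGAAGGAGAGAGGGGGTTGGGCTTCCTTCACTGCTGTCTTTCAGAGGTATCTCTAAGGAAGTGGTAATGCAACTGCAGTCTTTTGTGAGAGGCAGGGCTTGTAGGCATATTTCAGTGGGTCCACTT

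TRD-AS1 is named as antisense to the T cell receptor delta locus. Its region (chr14:22432633-22432928) shared 225 of the 300 bases and contained the start itself. By the authors' deposited table its log2 fold change was -1.73 for KMS-11, -0.91 for KMS-12 and -0.52 for RPMI8226, a mean of -1.05 ± 0.62 (SD, n = 3 lines). All 3 lines were past -0.5, with KMS-11 the lowest. The gene's other region (chr14:22391933-22392267), away from this window, had a mean of -0.76 ± 0.52 (SD, n = 3 lines), with KMS-11 its highest line. The window held the octamer motif ATGCAAAT, the site of the POU factors that act in B cells, as ATTTGCAT on the printed strand, starting 43 bases before the start. It also held TATAAA, on the opposite strand, 30 bases before the start. Of 35116 promoter windows of the same length, 1.77% held the octamer and 11.5% held TATAAA on either strand. No match was found in either window for the ETS motif CCGGAAGT (4.14% of all windows), the E-box CACGTG (7.26%) or the AP-1 motif TGANTCA (7.71%), each searched on both strands, and the window of LOC105377253 held none of the 5 motifs. A match is a description of the letters, and a missing one says nothing about the factor.

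The LOC105377253 region (chr4:63492438-63492797) covered 190 of the 300 bases of its window, start included. Its log2 fold changes in the authors' deposited table were -0.57 for KMS-11, -0.83 for KMS-12 and -0.22 for RPMI8226 (mean -0.54 ± 0.31, SD, n = 3 lines). RPMI8226 was the line that stayed above -0.5. One more region, in LOC105374547 (chr4:27650235-27650886, mean -0.69 ± 0.21, SD, n = 3 lines), reached its promoter window by only 2 bases and did not contain the start.

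MIR99AHG, which also holds a region, is the host transcript of the microRNAs miR-99a and let-7c. Their 5p mature forms are shown, and their 2 seeds differ. The sequences are from RefSeq (GRCh38.p14, chromosome 21, plus strand), with the seed, bases 2 to 8, in capitals.
hsa-miR-99a-5p: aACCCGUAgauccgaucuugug
hsa-let-7c-5p: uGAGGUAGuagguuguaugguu

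Every one of the 437 log2 fold changes was below 0 in each line, as were all others in the table, and a region entered that table only with a fold at or below -0.5 in at least 2 lines. The median log2 fold change of the lncRNA gene regions was -0.73 for KMS-11, -0.81 for KMS-12 and -0.60 for RPMI8226. Averaged over lines the median region stood at -0.70 (quartiles -0.87 and -0.59), a JQ1 to DMSO ratio of 0.615. On that reading of the sign the regions were less accessible after JQ1, within a table that holds no region going the other way.

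**Figure D1:**
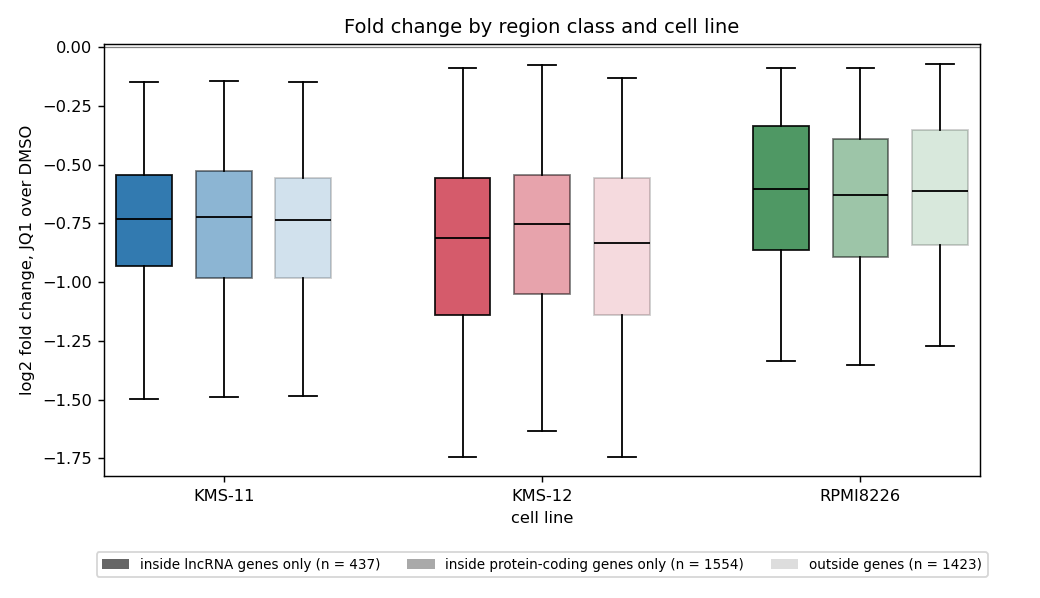
Log2 fold change of JQ1 over DMSO (vertical axis) in each cell line (horizontal axis) for regions inside lncRNA genes only, inside protein-coding genes only and outside genes. Boxes span the quartiles with the median as a line, and whiskers run from the 5th to the 95th percentile of regions. Within a line the 3 medians lie close together, from -0.75 to -0.83 in KMS-12 where they are farthest apart.

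Set against the remaining 3401 regions, those in lncRNA genes had nearly the same folds. Their median was -0.73 against -0.71 in KMS-11, -0.81 against -0.79 in KMS-12 and -0.60 against -0.62 in RPMI8226. The difference of medians averaged -0.0085 ± 0.018 (SD, n = 3 lines) and its sign varied between lines (exact two-sided sign-flip test over lines, p = 0.5). With 3 lines this test cannot go below 0.25. Against the 1554 regions lying only in protein-coding genes, at the same 1000 bp margin, the mean difference was -0.012 ± 0.043 (SD, n = 3 lines, exact sign-flip p = 0.75). KMS-12 had the largest part of it, with medians of -0.81 in lncRNA genes and -0.75 in protein-coding genes. Against 1423 regions outside genes the lncRNA gene regions were nearer to 0 in all 3 lines, by 0.012 ± 0.0087 (SD, n = 3 lines), and p = 0.25 is the smallest that the exact sign-flip test allows. None of these differences can reach the 0.05 threshold with 3 lines. The first 2 were smaller than their own SD over lines, and the last was larger than its SD.

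The authors counted a region as shared by 3 lines where all reached -0.5. This held for 101 of the 437 lncRNA gene regions (23.1%, Wilson 95% interval 19.4 to 27.3%) and for 851 of the other 3401, and the share over the whole table was 24.8%. The interval covers the counting of regions only. In the 336 lncRNA gene regions shared by 2 lines, the line above -0.5 was most often RPMI8226, with 155 regions (46.1%), and then KMS-11 with 94 (28.0%) and KMS-12 with 87 (25.9%). The order was the same in the 2886 regions of the whole table shared by 2 lines. There RPMI8226 had 1235 (42.8%), KMS-11 had 866 and KMS-12 had 785, so this order is not read as a result about lncRNA genes. The most negative fold came from KMS-12 for 192 regions (43.9%), from KMS-11 for 145 (33.2%) and from RPMI8226 for 100 (22.9%). Over the whole table these shares were 44.6%, 32.1% and 23.3%. A fold below the table's median for every line was found in 40 lncRNA gene regions (9.15%) and in 298 of the other regions (8.76%), against 8.81% of the table. The lines often diverged: in 106 regions (24.3%, against 24.4% of all other regions) the highest and lowest folds were more than 1 log2 unit apart, and in 74 regions at least 1 line was between -0.1 and 0.

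In limma's moderated test of the mean over lines against 0, fitted on all 3838 regions with Benjamini-Hochberg adjustment, 376 of the 437 lncRNA gene regions (86.0%) were lower under JQ1 at an adjusted p under 0.05. The same was true of 87.5% of all regions tested. Since the table was selected on these folds, the test repeats that selection and the count is not read as a result about lncRNA genes. It fell to 153 without KMS-11, to 219 without KMS-12 and to 237 without RPMI8226. The share of the whole table fell too, to 34.1%, 52% and 55% in these 3 settings.

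A second limma test asked which regions departed from the typical region, after the median fold of the table was subtracted in each line. Here 4 of the 437 lncRNA gene regions were lower at an adjusted p under 0.05, among 13 of all 3838 (0.339%). None of the 437 was higher, where 0.0% of all regions were. At an unadjusted p under 0.05 limma gave 14 lower and 0 higher, against 128 lower and 0 higher among all 3838. The selection left no room for a higher call. The mean nearest to 0 in the table was -0.36, too close to the typical region for a standard error of 0.256. The lack of higher regions is therefore not read as a result. The 4 regions were in LINC02740 (limma adjusted p = 1.00e-07), LOC105376940 (0.0418), LINC01162 (0.0434) and LINC01512 (0.0434). These 4 calls rest on few lines. In this fit every region had the same standard error, 0.256, so a region's own spread between lines did not enter its p. For LINC02740 that spread was an SD of 2.14. Without KMS-11 only LINC02740 was called (0.0404), without KMS-12 none of the 4 was (0.227 for LINC02740, 0.305 or more for the others) and MACC1-OT1 was called instead (0.0165), and without RPMI8226 all 4 were, at 0.0319 or less. With the table centred on its mean in place of its median only LINC02740 remained, the others standing at 0.0803 to 0.0828. With limma's robust variance setting LINC02740 itself was lost (0.99988) and the other 3 were kept, each at 0.0465.

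The lowest mean belonged to the region in LINC02740 (chr11:42215956-42216229), a gene whose role is not given in the sources used here. By the authors' deposited table it was at -3.04 for KMS-11, -4.17 for KMS-12 and -0.03 for RPMI8226, a mean of -2.41 ± 2.14 (SD, n = 3 lines). It was thus very low in 2 lines and near 0 in the other one, and its nearest protein-coding gene, LRRC4C, was 756 kb away. Without KMS-12 its mean was -1.54.

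The next 3 had about the same mean and were low in every line. LOC105376940 (chr3:5754530-5754894) stood at -1.87 for KMS-11, -2.16 for KMS-12 and -1.07 for RPMI8226 in the authors' deposited table, a mean of -1.70 ± 0.57 (SD, n = 3 lines). LINC01162 (chr7:20964189-20964497) had almost the same profile there, with -1.89, -2.08 and -1.07 for KMS-11, KMS-12 and RPMI8226 in the authors' deposited table (mean -1.68 ± 0.54, SD, n = 3 lines). LINC01512 (chr6:43910764-43910971) reached -1.56 for KMS-11, -2.60 for KMS-12 and -0.89 for RPMI8226 by the authors' deposited table (mean -1.68 ± 0.87, SD, n = 3 lines). KMS-12 was the lowest line and RPMI8226 the highest in all 3. The nearest protein-coding genes were EDEM1 at 535 kb from the LOC105376940 region, SP8 at 177 kb from that in LINC01162 and VEGFA, the endothelial growth factor gene, at 124 kb from that in LINC01512.

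In LINC01754 (chr20:47390574-47390930, mean -1.61 ± 0.84, SD, n = 3 lines) and MACC1-OT1 (chr7:20021850-20022101, mean -1.47 ± 0.94, SD, n = 3 lines) the lines parted in other ways. The LINC01754 values in the authors' deposited table were -0.79 for KMS-11, -2.46 for KMS-12 and -1.57 for RPMI8226. For MACC1-OT1 the authors' deposited table gave -2.37 for KMS-11, -0.49 for KMS-12 and -1.55 for RPMI8226. KMS-12 was thus the lowest line in LINC01754 and the highest, just short of -0.5, in MACC1-OT1. The region in LINC01754 lay 33.9 kb from ZMYND8, which encodes a chromatin protein with a bromodomain.

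Means between -1.32 and -1.29 belonged to regions in LOC105371456 (chr1:157269684-157269949), LOC102724495 (chr7:118311249-118311790), LOC124903656 (chr16:19095148-19095353), LOC105369844 (chr12:75712296-75712510), PTCHD1-AS (chrX:22345925-22346242) and LOC105372441 (chr19:50843918-50844873). All 6 were shared by 3 lines, and each had, in at least 1 line, a fold found in at least 10 regions of the table. The LOC124903656 mean was -0.86 without KMS-12. PTCHD1-AS, a gene of a locus linked to autism, was the longest gene among them at 1100 kb. The LOC105372441 region, 956 bp wide, lay 10042 bp from KLK3, the gene of prostate-specific antigen. Over all lncRNA gene regions, 59 (13.5%) had a mean at or below -1, against 12.1% of the other regions and 12.3% of the table, and 37 of these 59 were shared by 3 lines.

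**Figure D2:**
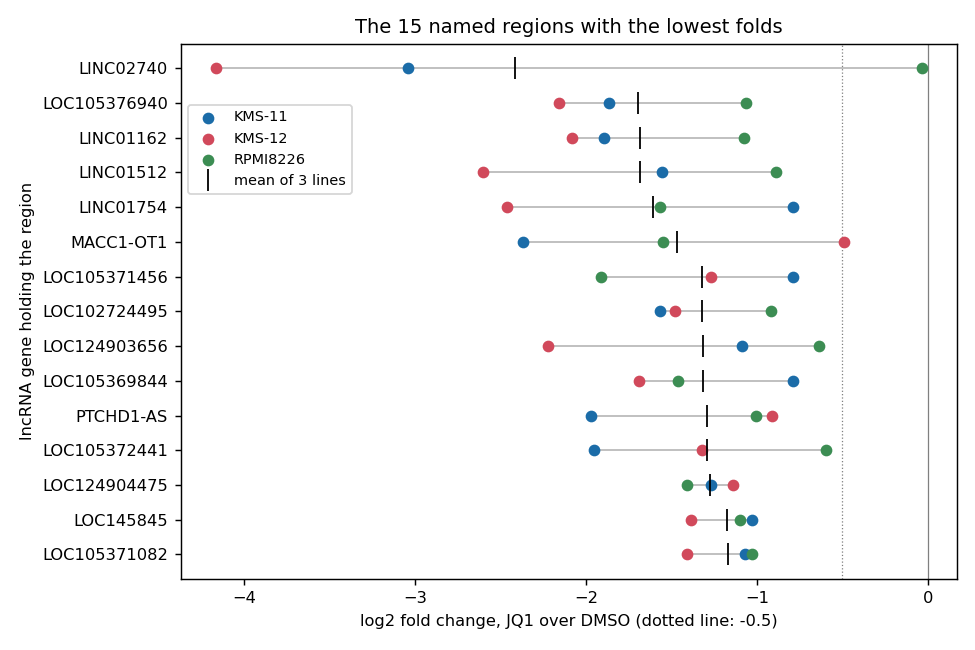
Log2 fold change of JQ1 over DMSO (horizontal axis) in each line (coloured points), with the mean (black tick), for the 12 lncRNA gene regions with the lowest mean and the 5 lowest in every line, 15 in all since 2 are in both. LINC02740 spans from -4.17 in KMS-12 to -0.03 in RPMI8226, while LOC124904475 has its 3 lines between -1.41 and -1.14, all values from the authors' deposited table.

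The 5 regions ranked lowest by their highest line included 3 not yet described. Beside LOC105376940 and LINC01162 these were in LOC124904475 (chr1:193479258-193479645), LOC105371082 (chr16:11311120-11311562) and LOC145845 (chr15:36868059-36868327). The LOC124904475 values by the authors' deposited table were -1.27 for KMS-11, -1.14 for KMS-12 and -1.41 for RPMI8226 (mean -1.27 ± 0.14, SD, n = 3 lines), a close agreement of lines. Its KMS-12 value is found in at least 10 regions of the table. LOC105371082 had -1.07 for KMS-11, -1.41 for KMS-12 and -1.03 for RPMI8226 in the authors' deposited table (mean -1.17 ± 0.21, SD, n = 3 lines). For LOC145845 the mean was -1.17 ± 0.19 (SD, n = 3 lines), and MEIS2, a homeobox factor gene, lay 20.9 kb away. In these 5 regions the fold nearest to 0 in any line was -1.03.

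At the other end, the means nearest to 0 were -0.37 in LOC100506446 (chr14:49959917-49960554), -0.37 in LOC124901992 (chr8:100494199-100495438) and -0.38 in LOC124905959 (chr2:191617473-191618301). Each had 2 lines between -0.56 and -0.50 and the other one at -0.10 or above. The LOC124905959 values of the authors' deposited table were -0.50 for KMS-11, -0.52 for KMS-12 and -0.10 for RPMI8226.

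Most lncRNA genes had a single region: 346 of the 392 genes had 1, 33 had 2, 11 had 3 and 2 had 4. Regions of the same gene are not replicates of each other, and their folds varied. LOC105377462, on chromosome 4, had 4 regions spread over 210 kb with means of -0.66, -0.70, -1.05 and -0.79 in order of position. The third (chr4:144411102-144411443) was low in all lines, at -1.21 for KMS-11, -0.91 for KMS-12 and -1.03 for RPMI8226 by the authors' deposited table. The fourth (chr4:144547701-144548199) was at -0.20 for KMS-11, -0.91 for KMS-12 and -1.24 for RPMI8226 in the authors' deposited table. KMS-11 and RPMI8226 thus changed places between these neighbours, while KMS-12 had the same value in both, one that recurs in 213 regions of the table.

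RBBP8-AS1, named as antisense to the DNA end resection gene RBBP8, had 4 regions over 134 kb of chromosome 18, with means of -0.58, -0.85, -1.02 and -0.57 by position. The lowest of them (chr18:22791106-22791350) was at -0.79 for KMS-11, -0.91 for KMS-12 and -1.36 for RPMI8226 in the authors' deposited table. It was the one region of this gene shared by 3 lines, but its KMS-11 and KMS-12 values recur in 178 and 213 regions of the table. LOC105371082, on chromosome 16, was the gene of 3 regions with the lowest median, -1.09, and all 3 of its regions were shared by 3 lines. They had means of -1.17, -1.09 and -0.88 by position, within 59.8 kb. In the last of them 2 lines had folds found in at least 10 regions of the table. Of the other genes with 3 regions, the median of the region means ran from -0.88 in PTCHD1-AS to -0.51 in MEF2C-AS1.

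MEF2C-AS1, named as antisense to the transcription factor gene MEF2C, had KMS-12 as its highest line throughout. Its 3 regions were at -0.34, -0.18 and -0.27 in KMS-12 by position in the authors' deposited table. In RPMI8226 the authors' deposited table gave -1.48, -0.63 and -0.69 for the same regions, and in KMS-11 all 3 lay between -0.60 and -0.51. None of them was shared by 3 lines.

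**Figure D3:**
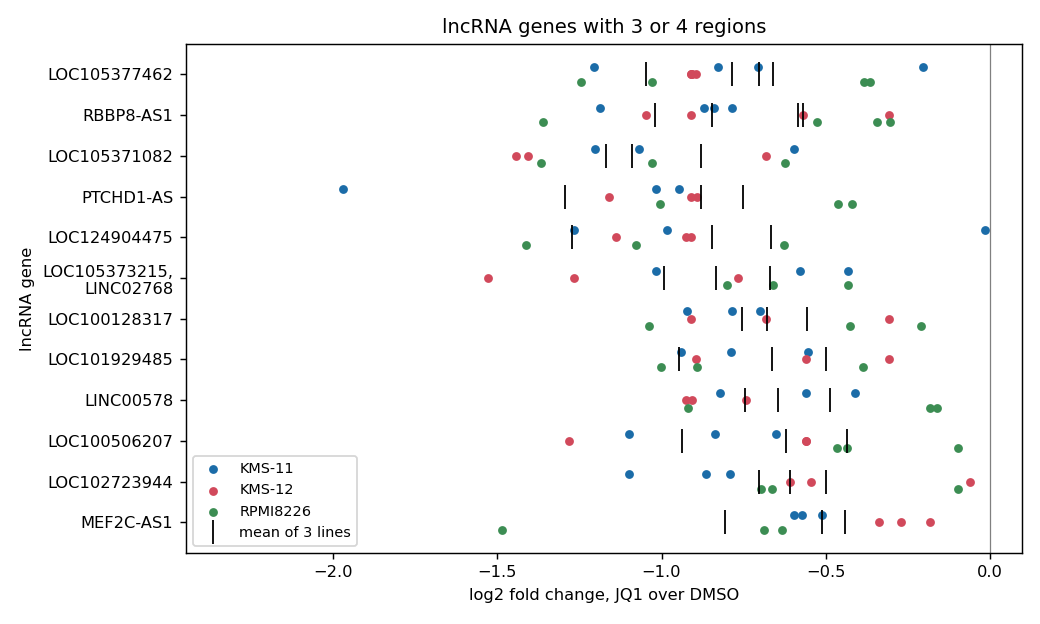
Log2 fold change of JQ1 over DMSO (horizontal axis) for each region of the lncRNA genes that hold 3 or 4 regions (vertical axis, 1 row per gene or overlapping gene pair). Coloured points are the lines and black ticks the mean over lines of each region. In MEF2C-AS1 the KMS-12 points of the authors' deposited table are the nearest to 0, from -0.34 to -0.18.

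By their symbols, 248 of the regions (56.8%) lay in genes with only a LOC number, 102 in LINC genes, 48 in genes named as antisense, 21 in divergent or overlapping transcripts of a neighbour, 4 in microRNA host genes and 23 in other named genes. A region in 2 genes counts in each of their classes. The median of the region means was -0.71 for LOC genes, -0.70 for LINC genes, -0.70 for antisense genes, -0.65 for divergent or overlapping ones, -0.66 for the others and -0.94 for the 4 in microRNA host genes, against -0.71 over the whole table. The share of regions shared by 3 lines was 26.2% in LOC genes, 18.6% in LINC genes, 20.8% in antisense genes, 9.52% (2 of 21) in divergent or overlapping ones, 17.4% in the others and 2 of 4 in microRNA host genes. These shares are given as counts, with no test.

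Of 34 well-known lncRNAs listed for the purpose, 3 had a region: CASC15, PVT1 and LINC-PINT, with 4 regions whose median was -0.68. Of the 4, 3 passed limma against 0, where 87.5% of all regions did. The count was 1 with KMS-11 left out, 1 with KMS-12 left out and 2 with RPMI8226 left out. In these settings 34.1%, 52% and 55% of all regions passed. CASC15, a gene of a neuroblastoma risk locus, had 2 of them. The first (chr6:21758118-21758494) was at -0.24 for KMS-11, -2.61 for KMS-12 and -0.60 for RPMI8226 in the authors' deposited table (mean -1.15 ± 1.27, SD, n = 3 lines). In the second (chr6:21785326-21786159) the lines were close, at -0.83 for KMS-11, -0.74 for KMS-12 and -0.63 for RPMI8226 by the authors' deposited table. The first was thus far lower than the second in KMS-12 and nearer to 0 in KMS-11. Without KMS-12 the mean of the first was -0.42, no longer past limma (adjusted p = 0.162), and that of the second -0.73.

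The region in PVT1 (chr8:127801329-127801699), a transcript gene next to the MYC oncogene, had a mean of -0.62 ± 0.12 (SD, n = 3 lines). It lost its limma call whichever line was left out (adjusted p = 0.0586 to 0.142). LINC-PINT, which is induced by p53, had a region (chr7:130961178-130961623) at -0.51 for KMS-11, -0.73 for KMS-12 and -0.32 for RPMI8226 according to the authors' deposited table. Its mean of -0.52 ± 0.21 (SD, n = 3 lines) did not pass limma (adjusted p = 0.0537). Both means were nearer to 0 than the median of the 437, -0.70.

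Of 87 microRNA host genes in the gene table, 4 had 1 region each: MIR99AHG, MIR3681HG, MIR4527HG and MIR155HG. The hairpins of miR-99a and let-7c, printed above, lay 111 and 112 kb from the region of their host gene MIR99AHG. That region (chr21:16427726-16428192) was at -0.98 for KMS-11, -1.53 for KMS-12 and -0.34 for RPMI8226 in the authors' deposited table (mean -0.95 ± 0.60, SD, n = 3 lines). MIR3681HG (chr2:12430792-12431174) had a mean of -0.94 ± 0.40 and MIR4527HG (chr18:47558170-47558413) of -0.94 ± 0.29 (SD, n = 3 lines each). MIR155HG (chr21:25573013-25573325) was nearer to 0, at -0.56 for KMS-11, -0.09 for KMS-12 and -0.71 for RPMI8226 by the authors' deposited table. Its mean, -0.45 ± 0.32 (SD, n = 3 lines), did not pass limma (adjusted p = 0.0876), while the other 3 did, against 87.5% of all regions.

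Looking outward, the median distance from a lncRNA gene region to the nearest protein-coding gene was 73.5 kb (quartiles 22.6 and 219 kb), against 45.2 kb for the regions outside genes. The nearest gene was within 10 kb for 52 regions and over 500 kb away for 41. Median means were -0.77 for the 52, -0.68 for the 198 at 10 to 100 kb and -0.71 for the 187 farther away. Shared by 3 lines were 30.8%, 19.2% and 25.1% of these groups. A nearest gene is a neighbour on the chromosome, and no expression was analysed here.

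Among 20 plasma cell identity genes, 2 were the nearest coding gene of a lncRNA gene region. A region in LINC02703 (chr11:115927879-115928299) lay 423 kb from CADM1, an adhesion gene, at -2.01 for KMS-11, -0.23 for KMS-12 and -1.33 for RPMI8226 in the authors' deposited table (mean -1.19 ± 0.90, SD, n = 3 lines). Its mean without KMS-11 was -0.78. The other, in LINC01934 (chr2:181281275-181281685), was 176 kb from ITGA4, which encodes an integrin chain of plasma cell adhesion, with a mean of -0.62 ± 0.19 (SD, n = 3 lines). Of 22 myeloma driver genes, BIRC3 and MYC had such neighbours. The region in LOC105369460 (chr11:102279726-102280114), 37.4 kb from BIRC3, an inhibitor of apoptosis of the NF-kB pathway, was at -1.68 for KMS-11, -1.03 for KMS-12 and -0.39 for RPMI8226 by the authors' deposited table. Its mean was -1.03 ± 0.65 (SD, n = 3 lines), with RPMI8226 above -0.5.

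For 3 regions MYC was the nearest coding gene, that of PVT1 at 58.4 kb and 2 others farther out. LOC124902020 (chr8:128184645-128185015, 442 kb) had a mean of -0.71 ± 0.68 and LINC00824 (chr8:128428089-128428754, 685 kb) of -0.91 ± 0.75 (SD, n = 3 lines each). RPMI8226 stayed at -0.08 in both in the authors' deposited table, against -0.47 in PVT1, while KMS-12 was the lowest line in both. Without KMS-12 their means were -0.35 and -0.60, and neither passed limma (adjusted p = 0.229 and 0.0649). MYC was also the 1 gene of 13 BET response genes with such a neighbour, and of 18 B cell program genes none had one. The regions of these lists passed limma in 2 of 2 plasma cell, 4 of 4 myeloma driver and 3 of 3 BET response cases, where 87.5% of all regions did, and this is not read as a result. Without KMS-11 none of these regions passed (0 of 2, 0 of 4 and 0 of 3), where 34.1% of the table did. With KMS-12 left out the counts were 2 of 2, 1 of 4 and 0 of 3, where 52% of the table passed. With RPMI8226 left out they were 1 of 2, 3 of 4 and 2 of 3, where 55% did.

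The lncRNA genes with a region were long, with a median of 59.6 kb against 9.04 kb for all 18303 lncRNA genes of the table. This follows in part from the rule, since a region more than 1000 bp from both ends needs a gene long enough to hold it. For 292 of the regions RefSeq gave a start and strand of the lncRNA gene, and the median distance to the nearest start of their own gene was 20.7 kb (quartiles 8.68 and 60.0 kb). With the gene divided from start to end into 4 equal parts, these held 75, 73, 87 and 57 regions, with median means of -0.70, -0.69, -0.71 and -0.68. The 46 regions within 5 kb of a start had a median of -0.78, the 164 at 5 to 50 kb one of -0.70 and the 82 beyond 50 kb one of -0.67. Their median widths were 344, 397 and 391 bp. Neighbouring regions were rarely close: 12 pairs of adjacent regions were within 10 kb, the closest 353 bp apart in LOC283683 on chromosome 15 at -0.47 and -0.53.

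The lncRNA gene regions were 147 to 1518 bp wide, with a median of 382 bp against 395 bp in all others. Medians were lower in narrower regions, in lncRNA genes as elsewhere, a description with no test. The median of the region means was -0.76 in the 121 regions under 300 bp, -0.70 in the 225 from 300 bp to under 600 bp and -0.63 in the 91 of 600 bp or more. In all other regions the same widths gave -0.75, -0.71 and -0.65. Values that recur in the table were more frequent in narrow regions for KMS-11 and KMS-12, and not for RPMI8226. In KMS-11, 75.2% of the lncRNA gene regions under 300 bp had a fold found in at least 10 regions, against 8.79% of those of 600 bp or more. KMS-12 had 73.6% and 31.9%, and RPMI8226 1.65% and 4.40%. In all other regions the same widths gave 66.2% and 11.0% in KMS-11, 67.7% and 30.8% in KMS-12, and 6.89% and 6.65% in RPMI8226. Among lncRNA gene regions the most repeated KMS-11 value of the authors' deposited table was -0.79, in 19 of them and in 178 regions of the table. In KMS-12 the authors' deposited table had -0.91 most often, in 33 of them and in 213 regions of the table.

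In all, 305 of the 437 had a repeated fold in at least 1 line, among them 33 of the 59 with a mean at or below -1. Regions without any repeated fold made up 30.2% of the 437 and 31.4% of the whole table. The 4 regions with the lowest means had none. Medians of the region means were the same with and without repeated folds (-0.70 each), while the share shared by 3 lines was 16.7% in the 132 regions without any, against 23.1% over all 437. The matching share of the whole table was not taken. What part repeated values have in the order of lines was not tested.

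**Figure D4:**
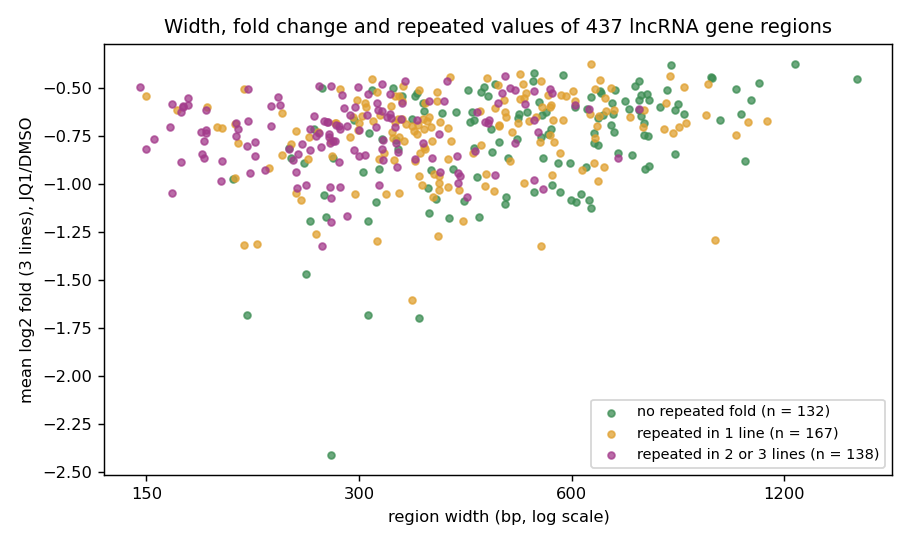
Mean log2 fold change over the 3 lines, JQ1 over DMSO (vertical axis), against region width in bp (horizontal axis, log scale) for the 437 lncRNA gene regions, coloured by how many lines carry a fold repeated in at least 10 regions of the table. The regions with repeats in 2 or 3 lines crowd at small widths, and the 4 lowest regions have no repeated fold.

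At the 1000 bp margin, the regions just inside were in SLC1A3-AS1 (1010 bp from a gene end, mean -0.97), LOC102467216 (1031 bp, -0.60) and LOC105376940 (1058 bp, -1.70). Those just outside were in LOC105371007 (972 bp, -0.74), LOC105376601 (959 bp, -0.55) and the overlapping genes LOC101928438 and LOC124902234 (945 bp, -0.82). LOC105376940, the region with the second lowest mean of all 437, thus lies just inside the margin, and with a 5000 bp margin it is not counted.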

How the data were processed

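The authors deposited, for 3838 regions, a fold for each line that was treated as log2, and a count of lines in common, which is a selection column. The authors named DESeq2, MACS2, hg38 and GRCh38.p13, without roles or versions, per the submitters' processing notes; how reads were aligned, filtered and scaled is not given in the sources here. Log base and direction (JQ1 over DMSO) are assumptions: the authors' DESeq2 reports log2, but no source says that it made these folds. In all 3838 regions the count of lines matched the lines with a fold of -0.5 or less, and 0 regions had a fold above 0. Samples were grouped by the treatment label. The cell line pairs a JQ1 with a DMSO library, and the fold carries that pairing.

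Regions were placed against 18303 lncRNA and the protein-coding genes of RefSeq GRCh38.p14, taken as the same coordinates as GRCh38.p13. Strand came from the RefSeq promoter table and covered 292 of 437 regions; exons were not used. Limma 3.58.1 (R 4.3.3) tested the mean of the 3 folds against 0, and, after subtracting the median of each line, against the typical region, on all regions with Benjamini-Hochberg adjustment. The standard error was 0.262 and 0.256 for every region, as the pooled spread dominated. Differences between sets used exact sign-flip tests over lines. The labels list 1 library per line and treatment, while the design text speaks of duplicates. With 1 fold per line, limma set each mean against a spread between lines pooled over all regions, which were themselves selected on their folds. In the main fits a region's own spread did not enter its p, and depth is unknown. The limma step was also run on simulated folds. These were not selected and had the same spread in every region, unlike this table, so that run does not show how the test behaves here.

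The regions named were the 12 lowest means, the 5 lowest in every line, the genes with most regions (a tie for the third place went to the lowest median), known lncRNAs, microRNA hosts, neighbours of listed coding genes and the 3 means nearest 0. Others are named as examples of a count. The regions, lists and tests were chosen with earlier results of these data known.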

Additional observations from a re-analysis of the deposited data

How the results depend on the processing

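The count of 376 lncRNA gene regions lower by limma ran from 153 to 237 when a line was left out. It was 167 without LOC genes and 91 among regions without repeated folds, settings that start from 197 and 132 regions. Of the whole table, 87.5% passed with all lines and 34.1% to 55% with a line left out. Of its 1206 regions without repeated folds 69.7% passed. The count of 4 against the typical region ran from 1 to 4 with a line left out, and was 1 with centring on the mean and 1 without repeated folds. Over the whole table it was 13, and ran from 3 to 18 with a line left out. There it was 5 with centring on the mean and 4 without repeated folds. The share shared by 3 lines, 23.1% (24.8% over the whole table), was 18.8% without LOC genes, 16.7% without repeated folds and 15.6% at a cutoff of -0.6. The whole table's share in these settings was not taken, so the lower shares are not read as a result about lncRNA genes. The difference from all other regions, -0.0085, turned to 0.0069 with no margin, 0.027 without LOC genes and 0.012 without repeated folds. That from protein-coding genes, -0.012, ran from -0.032 to 0.011 with a line left out, and was 0.00072 with no margin, 0.023 without LOC genes and 0.0067 without repeated folds. The cause of these moves was not tested. The mean difference from regions outside genes kept its sign under every setting run (0.0067 to 0.047). At a 5000 bp margin the lines no longer shared that sign (mean 0.021, exact sign-flip p = 0.75). Of the 41 named regions, leaving out KMS-11 cost 12 their limma call against 0, leaving out KMS-12 cost 7, and leaving out RPMI8226 cost 6. No change of sign was possible, since every fold in the table is below 0. No unpaired analysis was possible because only within-line folds were analysed. These already pair the 2 libraries of a line, so no fit without that pairing exists to set beside the tests. Depth is unknown and limits every single fold.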

Other observations

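Some lncRNA genes carry the name of a neighbouring coding gene of lymphocyte or stress biology; those named here were picked after their values were seen and got no test. IL12A-AS1, named after an interleukin-12 subunit gene, had 2 regions, with means of -1.12 ± 0.95 (chr3:160016877-160017515) and -1.01 ± 0.26 (chr3:159919916-159920188; SD, n = 3 lines each). The first was at -0.12 in KMS-12 in the authors' deposited table, and the second was past -0.5 in all lines. IKBKB-DT, named after an NF-kB activating kinase gene, had a region 5.14 kb from IKBKB at -0.65 ± 0.28, and JUN-DT one 101 kb from JUN, an AP-1 factor gene, at -0.47 ± 0.32 (SD, n = 3 lines each).

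The smallest spread between lines among the 437 was in LOC105373592 (chr2:122211285-122211554), at -0.66 for KMS-11, -0.66 for KMS-12 and -0.70 for RPMI8226 by the authors' deposited table. In 14 of the 437 regions all 3 folds lay within 0.2 of each other. Chromosome 3 held the largest number of lncRNA gene regions, 50 of its 337 in the table (14.8%), while the share was larger on chromosome 21 (20.8%) and chromosome 6 (18.2%), against 11.4% of the whole table. Chromosome 22 had 1 of 35.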
